A study of Mus musculus with 30 samples.

Results

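The cytosolic ribosomal protein genes are the nuclear genes for the proteins of the large and the small subunit of the ribosome that works in the cytoplasm. They were followed here in quadriceps muscle of the HSA-LR mouse, a model of myotonic dystrophy type 1 (DM1). Genes were taken from the table by name: protein-coding genes whose symbol begins with Rpl or Rps and a number, and Rplp0, Rplp1, Rplp2 and Rpsa, without pseudogenes and without the Rps6 kinases. Of the 90 genes named in this way, 78 had a mean level of at least 5 CPM (counts scaled to a common library total) over all 30 libraries, of 56748 genes in the table. The 78 members were 42 proteins of the large subunit, 29 of the small subunit, 6 paralogs or retrogenes (Rpl3l, Rpl7l1, Rpl22l1, Rps27l, Rps27rt and Rpl35rt) and Rps19bp1, which carries the name but encodes a binding protein of Rps19. All 78 passed the filter on low counts of the later tests. The limit on level fell between Rpl13a, which was just inside at 5.04 CPM, and Rpl35a, which was just outside at 4.98 CPM. The other genes outside it included Rps18 at 3.17 CPM, Rpl24 at 2.91 CPM, Rpl34 at 2.34 CPM, Rps10 at 0.555 CPM and Rpl29 at 0.462 CPM, all of which encode proteins of every ribosome. These levels are not certain. The mRNAs of Rpl24 and Rps10 lay for 71.5% and 53.55% of their length under another gene on the same strand. Some pseudogenes were counted above their parents in the first deposited set, described below. Medians there, in CPM of nuclear counts, were 93.4 for Rpl34-ps1, 67.8 for Rps18-ps5 and 31.0 for Rps10-ps2. In the 5 libraries without mitochondrial counts they were 71.8, 25.4 and 0.261. The split of reads between copies was not tested. Rpl36al was listed at 0.285 CPM and Rpl39l at 0.261 CPM, and Rpl10l and Rpl27rt were listed at 0 in every library.

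Each cytosolic ribosome holds a single copy of nearly every ribosomal protein, and the genes are expressed together in all cells. The mRNAs begin with a cytosine and a run of pyrimidines, the 5′ terminal oligopyrimidine (5′TOP) motif, through which mTORC1 and the protein Larp1 control their translation. In striated muscle fibres, Rpl3 of the large subunit is replaced in part by its paralog Rpl3l, which is made in heart and skeletal muscle. Ribosomal protein genes have also given rise to many processed pseudogenes and retrogenes, whose sequences are nearly the same as those of the parent mRNA.

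The mice were FVB/N wild type (WT, 5 libraries) or HSA-LR line 20b, which expresses an expanded CUG repeat from a human skeletal actin transgene in skeletal muscle and is the only DM1 model line used. Untreated HSA-LR mice (NT, 8 libraries) were set beside HSA-LR mice given pacDNA-L9, a locked nucleic acid antisense oligonucleotide of CAG repeats (L9) joined to a bottlebrush polymer, at 5.3 mg/kg (4 libraries), 21.2 mg/kg (3) or 42.4 mg/kg (3). The other groups received free L9 (5.3 mg/kg, 3 libraries), the polymer alone (Brush, 40 nmol, 2) or the polymer with a scrambled oligonucleotide (pacDNA-Scr, 5.3 mg/kg, 2). Mice were injected in the tail vein from 8 weeks of age, in repeated injections for the higher doses of pacDNA-L9, and quadriceps was taken 2 weeks after the last injection for polyadenylated RNA sequencing. The transcript that L9 targets is the human transgene, which was not analysed here. The labels do not say that each library came from its own mouse, so p-values measure the spread between these libraries. In whole muscle, fewer cells of a type and less RNA per cell cannot be told apart.

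Total counts per library ran from 13605309 to 26956558. The libraries came in 2 deposited sets, and the second held 6 of them, namely NT 7, NT 8, libraries C and D of the 5.3 mg/kg group, and the C libraries of 21.2 mg/kg and of free L9. In 5 of these 6, all but free L9 C, all 37 mitochondrial genes were at 0, and several ribosomal protein genes lay far from every library of the first set, as given below. Free L9 B stood apart within the first set, with 22.3% of its counts from mitochondrial genes. All comparisons with NT share the same NT libraries.

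Rescaled per kilobase of the canonical mRNA, the highest mean levels among the 78 members were those of Rplp1 (639 RPKM, which is CPM divided by kilobases of mRNA), Rpl13 (503) and Rplp0 (473). Rplp0 and Rplp1 belong to the stalk of the large subunit, where the elongation factors bind. The lowest were Rps19bp1 (10.7 RPKM), Rps2 (8.42 RPKM) and Rpl13a (5.25 RPKM). The counted mRNA levels of the members thus spread widely in this table. Rps2 had 11 near-identical coding copies elsewhere in the genome (at least 98% identity over at least 100 bases), and the mRNA of Rpl13a lay for 59.3% of its length under another gene on the same strand, so neither level is certain. Rpl37, at rank 74 of 78, was divided by a canonical mRNA of 6111 bases. The muscle paralog Rpl3l had 316 RPKM against 25.4 RPKM for Rpl3, the paralog of other tissues. Rpl3 has 3 near-identical coding copies elsewhere and Rpl3l none, so the level of Rpl3 is less certain.

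The promoter windows of RefSeq (GRCm38.p6, 250 bases before to 50 after the start) could be matched for 57 of 77 members searched. A cytosine at the annotated start followed by at least 4 C or T bases, read on the gene's strand, was found in 11 of the 57 (19.3%) and in 813 of all 27025 genes with a window (3.01%). The 11 were Rpl14, Rpl15, Rpl28, Rpl35, Rpl38, Rplp2, Rps6, Rps15a, Rps21, Rps27 and Rps27rt. An annotated start that lies a few bases off would be missed by this search. Windows from 10 bases before the start to the 20th transcribed base are printed for 5 of them to show the motif, with the run of pyrimidines from the start in capitals. They lie at chr4:86857348-86857377 (minus strand) for Rps6, the small-subunit protein phosphorylated below mTORC1, chr2:39005112-39005141 (minus) for Rpl35, chr11:114668570-114668599 (plus) for Rpl38, chr3:90213629-90213658 (minus) for Rps27 and chr9:114982720-114982749 (minus) for its retrogene Rps27rt.
Rps6: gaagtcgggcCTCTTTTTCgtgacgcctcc
Rpl35: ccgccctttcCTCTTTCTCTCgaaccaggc
Rpl38: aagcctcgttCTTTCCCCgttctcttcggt
Rps27: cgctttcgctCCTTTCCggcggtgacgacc
Rps27rt: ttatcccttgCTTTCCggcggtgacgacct

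The 78 members together took 1.09% to 1.91% of the nuclear counts of a library. In WT muscle the share was 1.27% ± 0.124 (SD, n = 5), from 1.09% to 1.41%. In NT muscle it was 1.46% ± 0.238 (n = 8), from 1.15% to 1.83% with a median of 1.47%. The 6 NT libraries of the first set lay between 1.28% and 1.83%, while NT 7 and NT 8 of the second set were at 1.15% and 1.21%, below the WT mean. With pacDNA-L9 the share was 1.38% ± 0.0345 (n = 4) for the lowest dose, 1.36% ± 0.0812 (n = 3) for the middle and 1.504% ± 0.175 (n = 3) for the highest. With free L9 it was 1.20%, 1.45% and 1.91%, the widest spread of any treated group. The Brush libraries were at 1.24% and 1.59% and the pacDNA-Scr libraries at 1.35% and 1.497%. All groups overlapped in the summed share, and no p-value was computed for it, since the members were chosen with earlier results known.

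**Figure D1:**
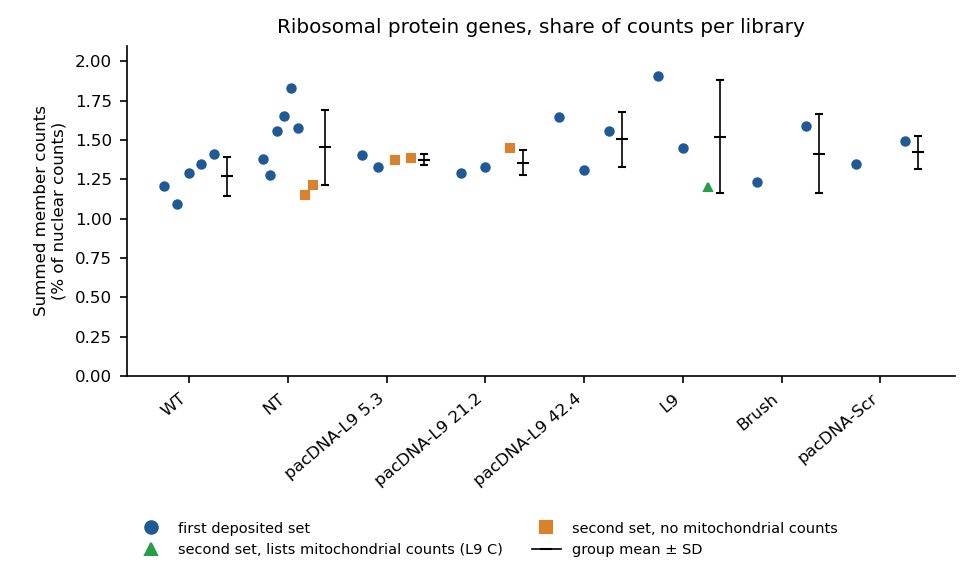
Summed counts of the 78 ribosomal protein genes as a percentage of the nuclear counts of each library (vertical axis) by group (horizontal axis), with group means and SD; colours and shapes mark the first deposited set, free L9 C, and the 5 libraries without mitochondrial counts. WT libraries lie between 1.09% and 1.41% and NT libraries between 1.15% and 1.83%, with both second-set NT libraries at the bottom of their group.

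The comparison of NT with WT sets the HSA-LR line beside FVB/N mice. Any other difference between these lines cannot be told apart from that of the repeat transgene. Most ribosomal protein mRNAs were fitted slightly higher in HSA-LR muscle, but few passed the test singly: Rpl4 and Rpl10 rose and no member fell (edgeR quasi-likelihood, Benjamini-Hochberg adjusted p under 0.05 over 17518 genes). Of all genes tested, 3.64% were called higher and 1.67% lower, so the 2 of 78 (2.56%) were a smaller share than that of genes at large. Without the 5 libraries whose mitochondrial genes were at 0, 5 members were called higher and none lower, beside 5.38% of all genes in either direction. The log2 fold changes of the members had a median of 0.27 against -0.03 for all genes, and 73 of 78 were above 0 against 46.4% of all genes. At an unadjusted p under 0.05, 22 members were higher, 28.2% of them against 8.83% of all genes, and 0 were lower, against 7.69%. The members share libraries and are measured together, so these counts are not 78 independent results. The median was 0.26 for the large subunit, 0.31 for the small subunit and 0.09 for the 6 paralogs and retrogenes. It was 0.17 for the 15 members without a near-identical coding copy elsewhere and 0.29 for the 63 with such a copy. The members fitted below 0 included Rps27rt (-0.81), Rpl7l1 (-0.21), Rpl38 (-0.07) and Rpl36 (0.00 to 2 decimals).

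CPM values from here on are normalized by TMM. The exceptions are the sums of cell type markers and the pseudogenes, which are CPM of nuclear counts. Rpl4, a large-subunit protein that lines the tunnel through which the new peptide leaves, was at 447, 473, 516, 526 and 530 CPM in WT muscle. In the 8 NT libraries it ran from 543 to 787 CPM, with a mean of 655 ± 70.7 against 498 ± 36.5 in WT. No NT library reached down to the WT range, and the log2 fold change was 0.41 (SE 0.11, edgeR adjusted p = 0.0214). Rpl4 has no near-identical coding copy elsewhere in the genome. Rpl10, which joins the large subunit late in its maturation, was at 164, 202, 212, 228 and 242 CPM in WT and from 240.5 to 359 CPM in NT (mean 301 ± 41.3). The ranges touched at a single NT library, and the log2 fold change was 0.52 (SE 0.13, edgeR adjusted p = 0.0128). Rpl10 has 7 coding copies elsewhere. Without WT 1, the lowest WT library for both genes, neither call held (edgeR adjusted p = 0.0705 for Rpl4 and 0.0525 for Rpl10), and without NT 6 or the WT library that carries no number the call of Rpl4 was lost (0.0571 and 0.0521).

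Groups did not overlap for 4 of 78 members, all higher in NT (Rpl4, Rpl14, Rpl23a and Rps27), which is 5.13% against 3.08% of all genes, while 1.64% of all genes lay wholly lower. Rps27, a zinc-finger protein of the small subunit, was at 29.2 to 42.0 CPM in WT and 44.5 to 145 CPM in NT, with a log2 fold change of 1.00 (SE 0.33) that missed the threshold (edgeR adjusted p = 0.0804). Its retrogene Rps27rt, with the same coding sequence, ran the other way, from 39.5 to 94.2 CPM in WT and from 0.975 to 71.04 CPM in NT (edgeR adjusted p = 0.456). Summed, Rps27 and Rps27rt were at 72.6 to 134 CPM in WT and 59.2 to 171 CPM in NT, so the groups overlapped once the pair was counted together. Rps27 made 29.7% to 45.6% of the sum in WT, 43.7% to 84.5% in the first-set NT libraries and 98.3% to 98.5% in NT 7 and NT 8.

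Other members central to the ribosome or to its regulation were fitted higher in NT without passing the test. Rpsa, the small-subunit protein also known as the laminin receptor, had a log2 fold change of 0.33 (478 ± 63.02 against 386 ± 50.2 CPM, edgeR adjusted p = 0.220). The value was 0.31 for Rps6 (adjusted p = 0.257), 0.35 for Rps4x (0.125), 0.26 for Rplp0 (0.454), 0.19 for Rplp1 (0.834) and 0.26 for Rplp2 (0.715) by the same edgeR test. Rpl41, the smallest ribosomal protein, was at 0.16 (0.799), and Rpl13a at 0.17 (0.785). Among the paralog pairs, Rpl22 had 0.26 and Rpl22l1 0.06, Rps27l had 0.12 beside the 1.00 of Rps27, and Rpl39 and Rpl36a had 0.12 and 0.15, none past the threshold.

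**Figure D2:**
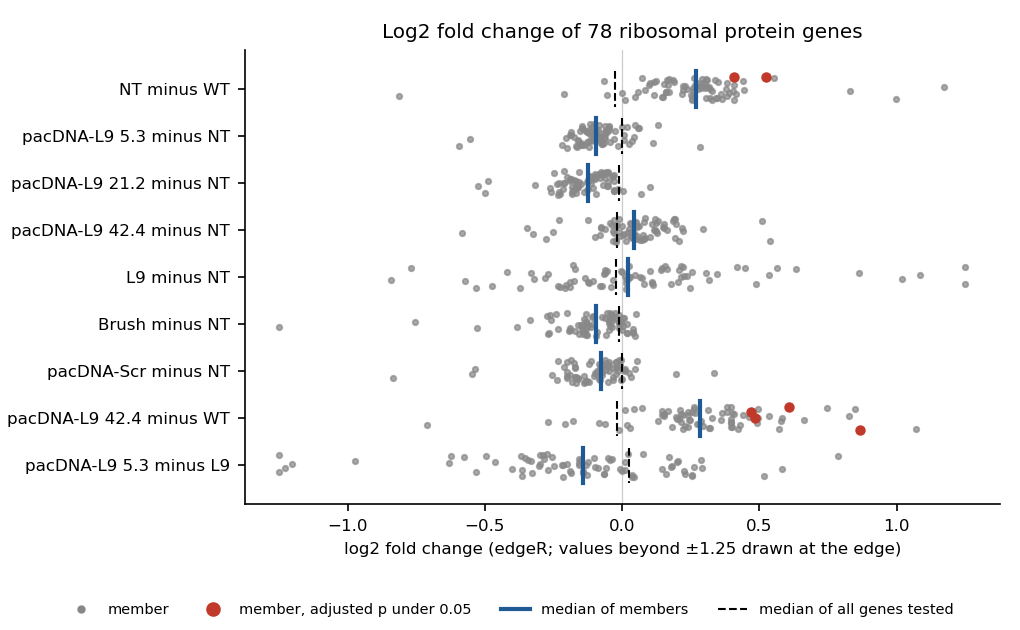
Log2 fold changes (horizontal axis, edgeR) of the 78 ribosomal protein genes in each comparison (vertical axis), with members past the adjusted p threshold of 0.05 marked. In NT minus WT and in 42.4 mg/kg minus WT most points lie to the right of 0 (73 and 71 of 78), while 21.2 mg/kg minus NT has 3 of 78 there.

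In muscle given 42.4 mg/kg of pacDNA-L9, Rpl3, Rpl5, Rpl7 and Rpl10 rose relative to WT and no member fell. These were 4 of 78 (5.13%), against 6.13% of all genes called higher and 3.85% lower, so the members were not called more often than genes at large. The median log2 fold change was 0.28 against -0.02 for all genes, and 71 of 78 members were above 0 against 46.5% of all genes. All 3 treated libraries lay above all 5 WT libraries for 38 of 78 members, or 48.7%, and below them for none, where 11.3% of all genes lay wholly above and 9.16% wholly below. The count cannot be set beside that of NT against WT, which rests on 8 libraries against 5. These 38 were 24 large-subunit and 14 small-subunit members, among them Rplp0, Rps6, Rps4x and Rpl22, and held none of the 6 paralogs and retrogenes. At an unadjusted p under 0.05, 23 members were higher (29.5% against 12.1% of all genes) and none lower (11.3% of all genes). Without the 5 libraries whose mitochondrial genes were at 0, none of which is in these groups but which enter the estimate of spread, 10 members were called higher, beside 10.7% of all genes called in either direction. The members fitted below 0 included Rps27rt (-0.71), Rpl22l1 (-0.27), Rpl7l1 (-0.21), Rps2 (-0.18), Rpl36 (-0.08) and Rps19bp1 (-0.01).

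Rpl3, which reaches towards the centre of the large subunit where peptide bonds form, was at 41.5, 46.7 and 47.3 CPM after 42.4 mg/kg. In WT it was at 21.9, 22.3, 22.5, 27.7 and 29.5 CPM, so the groups were well apart, with a log2 fold change of 0.87 (SE 0.19, edgeR adjusted p = 0.00318). Rpl10 was at 291, 331 and 336 CPM against 164 to 242 CPM in WT (0.61, SE 0.16, edgeR adjusted p = 0.0117). Rpl5, which binds 5S rRNA and, off the ribosome, the p53 regulator Mdm2, was at 242, 251 and 256 CPM against 158 to 193 CPM (0.47, SE 0.13, edgeR adjusted p = 0.0189). Rpl7, also of the large subunit, was at 349, 365 and 367 CPM against 232 to 294 CPM (0.48, SE 0.15, edgeR adjusted p = 0.0341). For all 4 genes every treated library stood above every WT library. The calls of Rpl5 and Rpl7 were lost when any of the 3 treated libraries or WT 1 was left out, that of Rpl7 also without WT 2, WT 3 or WT 4, and that of Rpl10 without library A or B, whereas that of Rpl3 held without any single library. The libraries of the 42.4 mg/kg group all carry running-number names in the table, which only 1 of the 5 WT libraries does, and with a term for this naming 0 of 78 members passed the edgeR test (Rpl3 0.69, adjusted p = 0.0693).

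**Figure D3:**
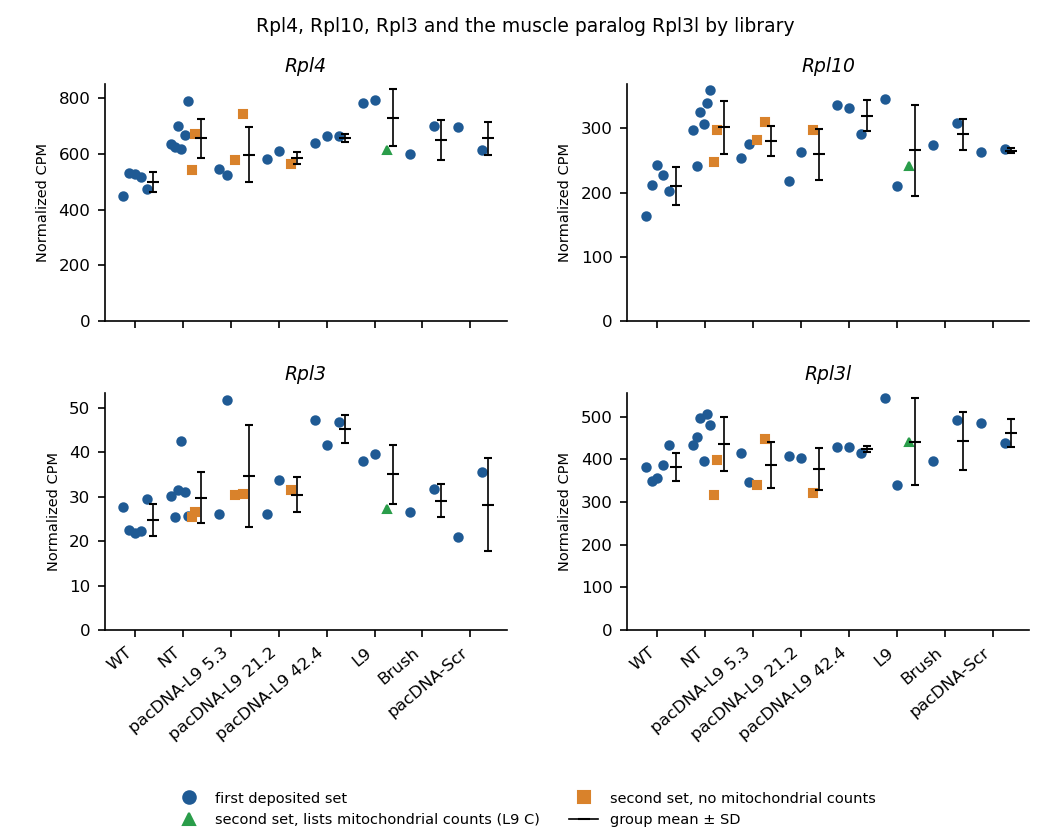
Normalized CPM (vertical axes) of Rpl4, Rpl10, Rpl3 and Rpl3l in every library by group (horizontal axes), with group means and SD. Rpl3 lies at 41.5 to 47.3 CPM after 42.4 mg/kg of pacDNA-L9 and at 21.9 to 29.5 CPM in WT, while Rpl3l stays between 316 and 545 CPM in all libraries.

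Rpl3l moved less than Rpl3. In WT muscle Rpl3l was at 350 to 434 CPM, in NT at 316 to 507 CPM and after 42.4 mg/kg at 415, 428 and 429 CPM, so the groups overlapped, with log2 fold changes of 0.23 for NT against WT (edgeR adjusted p = 0.351) and 0.15 for 42.4 mg/kg against WT (adjusted p = 0.601). Per kilobase, Rpl3 made 6.35% ± 0.530 (n = 5) of the sum of Rpl3 and Rpl3l in WT and 6.78% ± 1.55 (n = 8) in NT. After 42.4 mg/kg it made 10.0% ± 0.715 (n = 3), from 9.22% to 10.5%, above every WT library (5.70% to 7.07%). Library B (9.22%) lay below the highest NT library, NT 4 (10.1%), and libraries A and C (10.4% and 10.5%) above it, while the other NT libraries reached at most 7.77%. The lower doses spread more widely, at 6.21% to 13.5% for 5.3 mg/kg and 6.30% to 9.28% for 21.2 mg/kg. Free L9 ran from 6.10% to 10.9%, the Brush libraries were at 6.32% and 6.54%, and pacDNA-Scr gave 4.31% and 7.83%. Against NT, Rpl3 at 42.4 mg/kg had a log2 fold change of 0.54 (SE 0.18) that did not pass (edgeR adjusted p = 0.116). Without NT 4 it was 0.63 (edgeR adjusted p = 0.0481), so that library decided the call. The coding sequences of Rpl3 and Rpl3l agreed at 74.4% of aligned bases, and Rpl3 has 3 near-identical coding copies elsewhere while Rpl3l has none. The pseudogene Rpl3-ps1 was at 15.2 to 33.6 CPM of nuclear counts in the first set. The split of reads between it and Rpl3, on which the level and share of Rpl3 depend, was not tested.

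Markers of macrophages were highest at 42.4 mg/kg. The 7 macrophage genes tested summed to 56.3 to 91.7 CPM in WT, 59.9 to 119 CPM in NT, 127 to 206 CPM at 5.3 mg/kg, 123 to 256 CPM at 21.2 mg/kg and 252 to 336 CPM at 42.4 mg/kg. The sum was 188 to 208 CPM in the Brush libraries, 102 to 166 CPM with pacDNA-Scr and 50.9 to 120 CPM with free L9, and no macrophage gene was at 0 throughout. At 42.4 mg/kg, 5 of the 7 were higher than in NT and 5 of 7 than in WT by the edgeR test. The 5 lymphocyte genes stayed at or under 1.38 CPM in sum and the 8 muscle fibre genes were abundant in all groups. Of these 8, 1 was fitted higher than in WT in NT (median log2 fold change -0.22) and 1 at 42.4 mg/kg (-0.30), with none called. The 4 endothelial genes were all fitted lower than in WT both in NT (median log2 fold change -0.40, none called) and at 42.4 mg/kg (-0.43, with Kdr called), with sums of 244.5 to 489.6 CPM in WT, 169 to 303 CPM in NT and 173 to 270.2 CPM at 42.4 mg/kg. The 5 adipocyte genes were likewise all fitted lower, with medians of -0.32 and -1.97 and none called, and their sums were 375 to 1060 CPM, 113 to 2209 CPM and 237.5 to 394 CPM in the same order. Of the 5 fibroblast genes none was called in NT against WT, and at 42.4 mg/kg Pdgfra was higher than in WT (0.93) and Col1a1 lower (-1.86). The satellite cell genes Pax7 and Myf5 were fitted higher in both (medians 1.04 and 0.74, none called), at sums of 0.883 to 4.27 CPM in WT, 2.92 to 4.16 CPM in NT and 1.36 to 3.96 CPM at 42.4 mg/kg. Mbp, a myelin gene of Schwann cells, was lower in NT (14.5 ± 4.81 CPM, n = 8) than in WT (27.3 ± 11.3 CPM, n = 5), with a log2 fold change of -0.97 (edgeR adjusted p = 0.0223). The part of these cells in the levels of the ribosomal protein genes was not tested.

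Against NT, no group given an oligonucleotide or polymer had a ribosomal protein gene past the threshold of the edgeR test. At 42.4 mg/kg, 0 of 78 members were called, where 2.28% of all genes were higher and 0.862% lower. DESeq2 called 0 members, beside 4.47% of all genes in either direction. In edgeR, 1 member (Rpl3, higher) was at an unadjusted p under 0.05 (7.09% of all genes higher, 6.01% lower). The median log2 fold change was 0.04, with 53 of 78 above 0 against 47.5% of all genes. At 5.3 mg/kg, 0 members and 0% of all genes were called, and DESeq2 called 0 members (0.00924% of all genes in either direction). In edgeR, 0 members were at an unadjusted p under 0.05 (1.2% of all genes higher, 0.382% lower). The median was -0.10, with 12 of 78 above 0 against 49.4% of all genes. At 21.2 mg/kg, 0 members were called beside 0.0685% of all genes higher and 0% lower, and 0 by DESeq2 (0.0647% in either direction). Again 0 were at an unadjusted p under 0.05 in edgeR (1.59% and 0.622% of all genes). The median was -0.13, with 3 of 78 above 0 against 48% of all genes. The Brush group had 0 members by edgeR (0% of all genes) and 0 by DESeq2 (0.0185% in either direction). It had 0 at an unadjusted p under 0.05 in edgeR (1.21% of all genes higher, 0.668% lower). Its median was -0.09, with 11 of 78 above 0 against 48% of all genes. The pacDNA-Scr group had 0 members by edgeR (0% of all genes) and 0 by DESeq2 (0.00308% in either direction). It had 0 at an unadjusted p under 0.05 in edgeR (0.93% and 0.611% of all genes). Its median was -0.08, with 9 of 78 above 0 against 49.7% of all genes. The 5 comparisons use the same NT libraries, so a member that is high in the NT libraries is low in all of them.

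Free L9 against NT also gave 0 members past the edgeR threshold, beside 0.765% of all genes higher and 0.177% lower. At an unadjusted p under 0.05, 8 members were higher (8.31% of all genes) and 2 lower (5.51%). DESeq2 called 3 higher, beside 2.83% of all genes in either direction. The median was 0.02, with 44 of 78 above 0 against 47.6% of all genes. This group depended on single libraries, since without free L9 A 17 members were called, 14 of them lower, beside 7.78% of all genes called in either direction, and the median was -0.28. Without free L9 B, free L9 C or NT 3 the count was 1, 5 and 1, all higher, beside 1.54%, 6.57% and 0.823% of all genes. At the matched dose of 5.3 mg/kg, pacDNA-L9 against free L9 had 0 members called by edgeR, beside 0.194% of all genes higher and 0.525% lower. DESeq2 called 1 lower, beside 2.28% of all genes in either direction. At an unadjusted p under 0.05 in edgeR, 8 were lower (6.15% of all genes) and none higher (5.06%). The smallest p belonged to the retrogene Rpl35rt, at 2.29 to 13.4 CPM with pacDNA-L9 and 13.58 to 16.1 CPM with free L9 (log2 fold change -1.38, SE 0.40, edgeR adjusted p = 0.109). Its low values with pacDNA-L9 were those of libraries C and D (2.29 and 2.46 CPM), both among the 5 libraries without mitochondrial counts. In the first set, pacDNA-L9 A and B were at 13.4 and 12.1 CPM and free L9 A and B at 13.7 and 13.58 CPM. The median was -0.14, with 24 of 78 above 0 against 52.6% of all genes, and without free L9 A it was 0.10 with 7 members called, 6 of them higher, beside 3.73% of all genes in either direction. Without free L9 B or C, 2 and 4 members were called lower, beside 1.66% and 3.35% of all genes. Conjugated and free L9 were thus not told apart in these genes at this number of libraries, which does not show that they act alike.

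Within the deposited sets, the members lay on opposite sides of NT at the lower doses of pacDNA-L9. In the first set (2 libraries against 6 NT), the median of the members' log2 difference from NT was -0.33 at 5.3 mg/kg, with 3 of 78 above 0. In the second set (2 against 2 NT) it was 0.26, with 77 of 78 above 0. All genes had a median of 0.00 in the first set and 0.01 in the second, with 48.4% and 51.55% above 0. At 21.2 mg/kg the medians were -0.29 with 1 of 78 above 0 in the first set (2 against 6 NT) and 0.24 with 67 of 78 above 0 in the second (1 against 2 NT). Of all genes, 47.6% and 46.6% were above 0 at 21.2 mg/kg. For free L9 the medians were -0.03 with 38 of 78 and 0.08 with 49 of 78, beside 42.6% and 51.2% of all genes. The pooled medians of -0.10 and -0.13 given above therefore average differences of opposite sign.

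In a model that let the difference from NT vary by set, the difference between sets had a member median of 0.62 at 5.3 mg/kg, with 76 of 78 above 0, and 0.56 at 21.2 mg/kg, with 77 of 78 above 0. The all-gene share above 0 was 50.3% and 48.7%. For free L9 the median was 0.13 with 44 of 78 above 0, close to the median of 0.12 and share of 55.2% of all genes. Tested singly over the 3 treatments, 1 of 78 members passed (Rpl35rt, edgeR adjusted p = 0.00157), beside 1.22% of 16697 genes. The difference between sets for Rpl35rt was 0.23 at 5.3 mg/kg, -0.40 at 21.2 mg/kg and 2.88 for free L9, where free L9 C at 16.1 CPM was set against NT 7 and NT 8 at 1.90 and 2.15 CPM, both among the 5 libraries without mitochondrial counts. Both within-set contrasts use NT 7 and NT 8 in the second set, whose summed shares of 1.15% and 1.21% were below all 6 first-set NT libraries.

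Members were called between the deposited sets about as often as genes at large. With group in the model, 12 of 78 members (15.4%) were higher in the second set, against 18.6% of all genes. A further 6 (7.69%) were lower, against 6.34% of all genes. Rpl7a (log2 difference 2.37), Rps2 (2.37), Rpl17 (2.22), Rpl21 (2.08) and Rpl23a (2.01) were the highest, with edgeR adjusted p from 5.18e-14 for Rpl23a to 0.000604 for Rpl21. Rps27rt (-4.34, adjusted p = 2.14e-06), Rpl35rt (-2.03, 3.12e-06), Rplp2 (-0.82, 0.0106), Rpl39 (-0.70, 0.00130) and Rpl36 (-0.59, 0.0180) were the lowest by the same test. Of the 18 members called, 17 had a near-identical coding copy elsewhere in the genome, as do 63 of all 78 members, and Rpl32 was the exception. Without free L9 B, 28 members were called, beside 35.8% of all genes in either direction. Without the 5 libraries, which leaves free L9 C as the only library of the second set, 2 members were called, beside 5.63% of all genes.

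For Rpl7a, Rpl17, Rps27rt and Rpl35rt, free L9 C lay within the first-set range, apart from the other 5 libraries of its set. Rpl7a was at 250 to 343 CPM in the 5 and at 4.55 to 78.2 CPM in the 24 libraries of the first set, with free L9 C at 47.8 CPM, inside the first-set range. Rpl17 was at 160 to 219 CPM against 15.8 to 53.5 CPM, with free L9 C at 36.8 CPM. For Rpl23a, at 291 to 327 CPM in the 5 and 44.9 to 96.03 CPM in the first set, free L9 C was in between at 172 CPM, and for Rps2, at 22.9 to 30.4 CPM against 0 to 11.9 CPM, it was near the 5 at 22.5 CPM. Without the 5 libraries, the difference between sets was 1.38 for Rpl23a and still past the threshold (edgeR adjusted p = 0.000981), and 2.79 for Rps2 (adjusted p = 0.0789). Rps27rt fell to 0.975 to 1.39 CPM in the 5 against 14.3 to 94.2 CPM in the first set, and Rpl35rt to 1.59 to 2.46 CPM against 7.09 to 18.3 CPM, with free L9 C at 17.9 and 16.1 CPM. These 4 higher and 2 lower members were the ones for which the 5 libraries did not overlap the first set. Rpl21 overlapped only through free L9 B (293 CPM), with 214 to 279 CPM in the 5 libraries. The share of all genes for which the 5 did not overlap was not computed, so the counts of 4 and 2 members have no background. They do not set the members apart from other genes. In a different comparison, of the whole second set with first-set libraries of the same groups, 13.3% of all genes lay wholly higher and 0.166% wholly lower. Of the 78 members, 2 (2.56%) lay wholly higher and 0 wholly lower there.

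**Figure D4:**
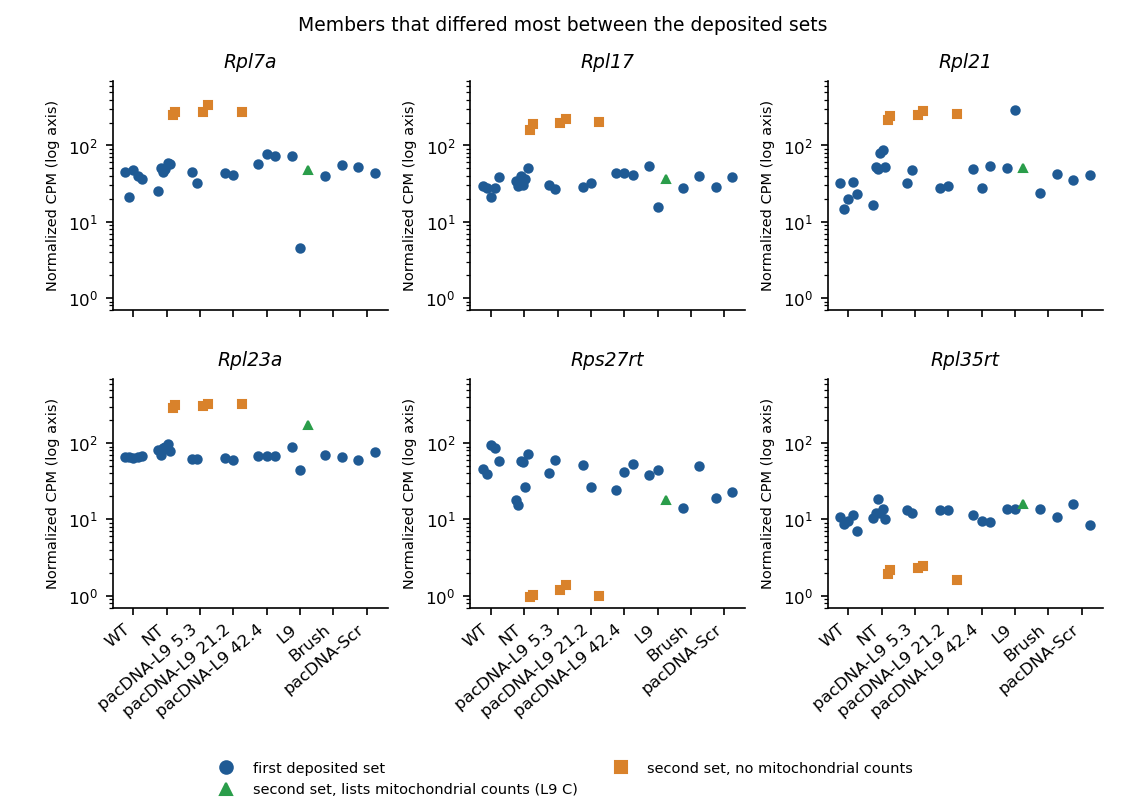
Normalized CPM on log axes (vertical) of Rpl7a, Rpl17, Rpl21, Rpl23a, Rps27rt and Rpl35rt in every library by group (horizontal). The 5 libraries without mitochondrial counts sit apart from the first set in every panel but that of Rpl21, which free L9 B reaches, such as 250 to 343 CPM for Rpl7a against at most 78.2 CPM in the first set, and free L9 C mostly lies with the first set.

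Pseudogenes of the family differed between the sets in both directions. Of 97 tested, 26 were higher in the second set and 42 lower, with a median log2 difference of -0.96, beside 18.6% and 6.34% of all genes. The ones named here were chosen after their values were seen, and their CPM values are of nuclear counts, without TMM. Rpl17-ps3 was at 0.371 to 1.31 CPM in the 5 libraries, 35.3 to 179 CPM in the first set and 74.4 CPM in free L9 C, opposite to Rpl17. Rpl21-ps15 was at 0.371 to 1.09 CPM, 22.6 to 40.4 CPM and 91.3 CPM in the same order, also opposite to its parent. Rpl7a-ps11 was at 162 CPM in free L9 C alone, at 1.84 to 4.15 CPM in the first set and at 0.784 to 1.39 CPM in the 5 libraries. Rps2-ps10 was at 408 to 508 CPM in the 5 libraries, above its range of 34.5 to 286 CPM in the first set, so not every pseudogene ran opposite to its parent. The assignment of reads among these copies was not tested, since the reads were not analysed here.

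The retrogene pairs show how little the coding sequences differ. Over their coding sequences, Rps27 and Rps27rt were identical at all 252 bases, and Rpl35 and Rpl35rt at 368 of 369. The first 150 coding bases of each are printed to show this (GRCm39, genes at chr3:90119819-90120977 on the minus strand for Rps27, chr9:114811434-114811807 minus for Rps27rt, chr2:38891591-38895637 minus for Rpl35 and chr1:156193610-156194054 plus for Rpl35rt), with the base at which Rpl35 and Rpl35rt differ in capitals.
Rps27: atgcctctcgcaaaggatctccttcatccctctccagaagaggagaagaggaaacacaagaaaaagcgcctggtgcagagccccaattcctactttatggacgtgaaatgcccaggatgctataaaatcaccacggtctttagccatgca
Rps27rt: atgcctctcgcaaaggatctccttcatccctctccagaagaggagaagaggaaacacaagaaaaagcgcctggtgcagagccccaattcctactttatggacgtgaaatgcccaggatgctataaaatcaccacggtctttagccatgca
Rpl35: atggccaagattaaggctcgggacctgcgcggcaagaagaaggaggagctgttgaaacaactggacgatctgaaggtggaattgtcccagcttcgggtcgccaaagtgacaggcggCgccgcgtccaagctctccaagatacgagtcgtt
Rpl35rt: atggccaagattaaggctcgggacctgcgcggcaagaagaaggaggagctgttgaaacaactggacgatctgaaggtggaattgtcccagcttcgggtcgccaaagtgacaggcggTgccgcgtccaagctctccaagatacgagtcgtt

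Rpl35 and Rpl35rt also shifted between them. Rpl35 made 88.1% to 92.4% of their summed CPM in the first-set NT libraries and 98.7% to 98.8% in NT 7 and NT 8. The paralogs that differ more in sequence gave other values. Rps27l, 76.2% identical to Rps27 over the aligned coding bases, had a log2 difference between sets of -0.03, and Rpl7l1, 62.6% identical to Rpl7, had 0.18, neither past the threshold. Rpl22l1, 70.8% identical to Rpl22, was higher in the second set (1.08, edgeR adjusted p = 9.15e-05) and has 2 near-identical coding copies of its own.

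**Figure D5:**
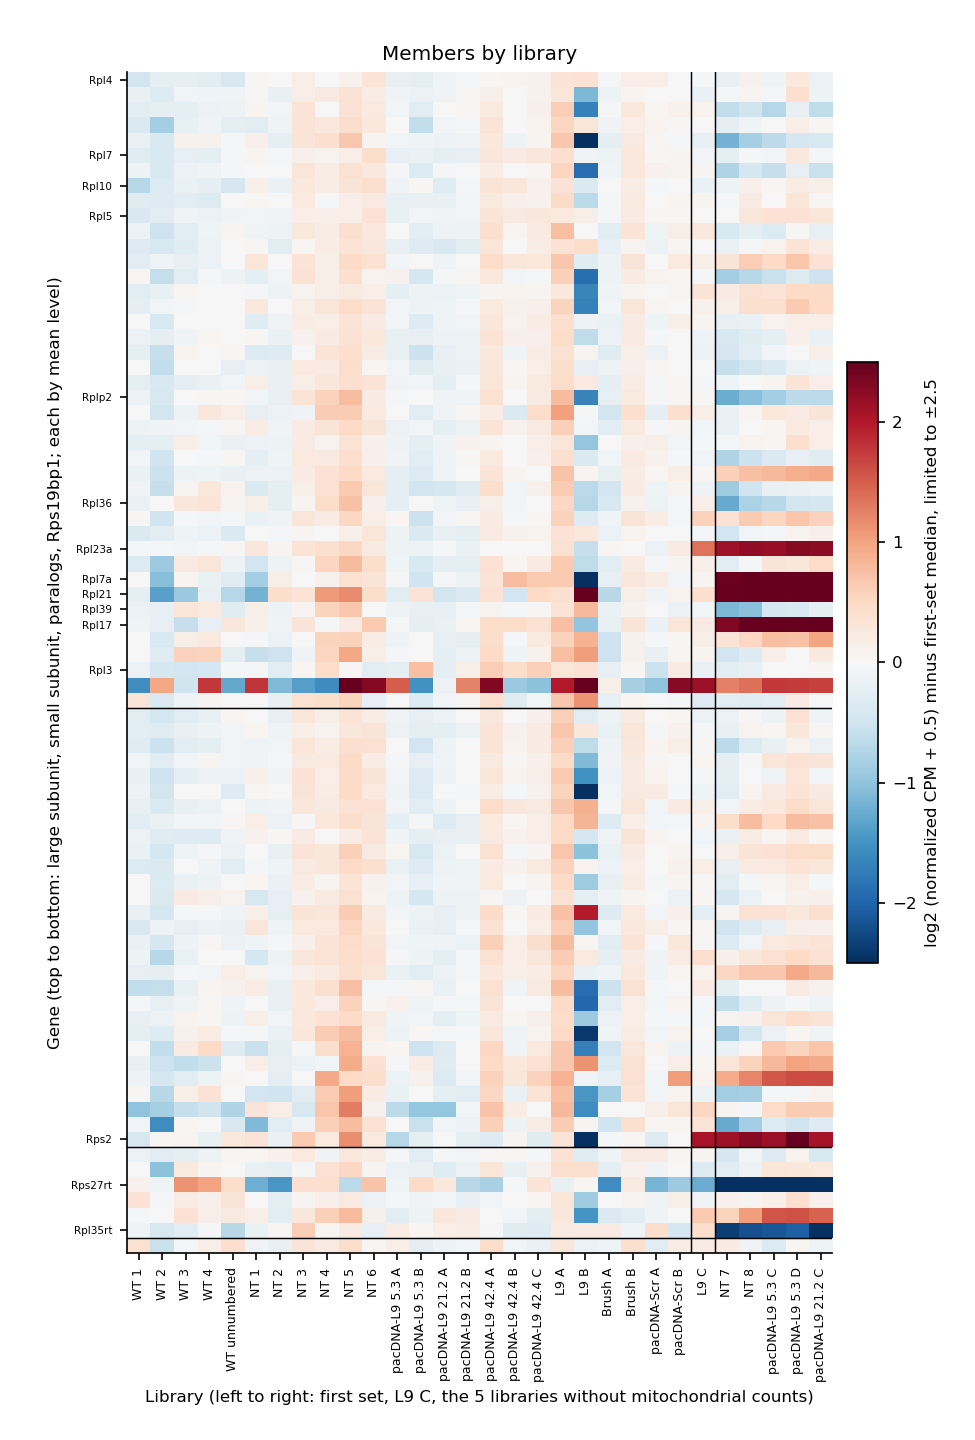
Level of each of the 78 members (rows, by subunit and then by mean level, with names for the called members picked by the naming rule) in each library (columns), as log2 (normalized CPM + 0.5) minus the median of the first set. The 5 libraries without mitochondrial counts share bands of higher (Rpl7a, Rpl17, Rpl21, Rpl23a, Rps2) and lower (Rps27rt, Rpl35rt) members, and free L9 B has the most uneven column, with an interquartile range of 1.27.

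Free L9 B was the most uneven library of the first set over these genes. It was the lowest of the 24 for 36 of 78 members and the highest for 12, and 27 members lay more than 1 log2 unit from the first-set median, 21 of them below. The interquartile range of these log2 differences was 1.27 in free L9 B and 0.12 to 0.28 in the other 23 libraries. Rps14 was at 29.9 CPM against 177 to 357 CPM in the others, Rplp1 at 59.0 against 260 to 541 CPM and Rps19 at 16.6 against 71.8 to 154 CPM. Rps26 ran the other way, at 591 CPM against 111 to 250 CPM. Across the 78 members, the log2 difference of free L9 B had a Pearson correlation of -0.376 with the GC content of the coding sequence, given as a description over genes of a single library. In the other 23 libraries this correlation ran from -0.293 (NT 6) to 0.300 (Brush B), all smaller in size than in free L9 B. A correlation does not measure how large the differences were, and whether GC content had a part in them was not tested. Free L9 A was the highest library for 37 members, so the libraries of this group deviated in opposite directions.

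Other genes of protein synthesis gave a mixed picture. Among 19 translation factors and other mRNAs with the 5′TOP motif, 3 were higher in NT than in WT (3.64% of all genes were) and none lower: Eef1g, a subunit of elongation factor 1 (log2 fold change 0.66, edgeR adjusted p = 0.00179), Eif3h of initiation factor 3 (0.44, adjusted p = 0.00402) and Hnrnpa1, an RNA-binding protein (0.52, adjusted p = 0.0233). Their median was 0.30. After 42.4 mg/kg, 5 were higher than in WT (Eef1a1, Eef1g, Eif3h, Eif4b and Hnrnpa1; 6.13% of all genes were) and none lower, with a median of 0.37, and Eef1a1, which brings aminoacyl-tRNA to the ribosome, was at 555 ± 22.0 CPM (n = 3) against 364 ± 55.7 CPM (n = 5; 0.61, edgeR adjusted p = 0.0498). Fau and Rack1, ribosomal proteins under other names, had log2 fold changes of 0.25 and 0.22 in NT against WT, neither past the threshold.

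Of 49 ribosome biogenesis genes, 1 was higher in NT than in WT, beside 3.64% of all genes, and none lower, with a median of 0.07. It was Polr1d of RNA polymerases I and III (0.48, edgeR adjusted p = 0.0440). After 42.4 mg/kg, Ddx21 (0.45), Gtpbp4 (0.52), Rrp1 (0.47) and Rrp12 (0.76) were higher than in WT, each needed for the making or export of subunits, and the median was 0.20. These 4 of 49 stand beside 6.13% of all genes called higher in that comparison. Of 22 regulators of ribosomal protein synthesis, 1 was higher in NT than in WT, again beside 3.64% of all genes. It was Rragd, a GTPase that brings mTORC1 to the lysosome (0.61, edgeR adjusted p = 0.00489). The mTORC1 inhibitors Ddit4 and Sesn1 were higher at 42.4 mg/kg than in NT, 2 of 22 beside 2.28% of all genes (4.47, edgeR adjusted p = 0.00598, and 1.37, adjusted p = 0.00267), with SDs of the treated libraries as large as 324 CPM on a mean of 329 CPM for Ddit4. The 77 mitochondrial ribosome genes tested had 0 calls and a median of 0.09 in NT against WT, and the 80 nuclear oxidative phosphorylation genes had 0 calls and a median of 0.01, beside -0.03 for all genes. The difference between these lists and the cytosolic ribosomal proteins was not tested.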

How the data were processed

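RNA from 30 quadriceps libraries was sequenced after poly(A) selection as paired-end reads. Per the labels and the submitters' processing notes, the authors aligned reads with HISAT2 (version 2.0.5) to GRCm39 and used DESeq2. The deposited table holds whole-number counts per gene for every library, not normalized. The handling of reads that match several places, which bears on genes with near-identical copies, is not given in the sources used here.

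Gene IDs were matched to GENCODE release 39 (56017 of 56748, 731 unmatched). Mitochondrial genes were kept in the tests, and shares were taken over nuclear counts. Counts passing filterByExpr (17518 genes) were fitted with edgeR 4.0.16 (R 4.3.3, TMM, robust quasi-likelihood, terms for group and deposited set, all libraries; limma 3.58.1 underneath), with Benjamini-Hochberg adjustment over all genes at 0.05. The script was tested on simulated counts. CPM values are TMM-normalized, except marker sums, pseudogene values and RPKM, which use nuclear counts alone. The limit of 5 CPM used total counts. RPKM values divide by the canonical mRNA length of GENCODE. Coding copies were found with BLAST 2.17.0 (at least 98% identity over at least 100 bases). Counting intervals were not used, since the replicates set the errors. Alternatives were DESeq2 1.42.0, other size factors and filters, other terms, the first set alone, and each library left out. The members and gene lists were chosen with earlier results of these data known. Genes named were a list of paralog pairs and core members, plus all members called in a comparison or, above 10, the 5 largest and the 5 smallest log2 changes among them. Other genes named were chosen after their values were seen. A few genes of these lists are not reported by name here. Letters were tried as pairs of 5.3 mg/kg pacDNA-L9 with free L9, where same-letter libraries correlated at 0.343, 0.211 and 0.432. The C libraries of both groups are of the second set and A and B of the first, so this check does not establish that mice were paired. Numbers did not pair NT with WT by the same check.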

Additional observations from a re-analysis of the deposited data

Results flagged for a closer look

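In 87 checks of single libraries within groups of 4 to 10, 4 libraries lay far from the rest of their group, and chance alone gives about 1 in 20. Rps27l, a paralog of Rps27 that p53 induces, was at 24.2 CPM in WT 2 against 49.8 to 59.4 CPM in the other WT libraries. Rpl3 was at 42.5 CPM in NT 4 against 25.4 to 31.6 CPM in the other NT libraries, and at 51.7 CPM in library B of 5.3 mg/kg against 26.2 to 30.5 CPM. Rplp0 was at 813 CPM in library D of 5.3 mg/kg against 543 to 587 CPM in the others of that group. The chance share applies to each check, and the members of a library are not independent.

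The difference of Rpl35rt from NT varied by deposited set in the edgeR test over the 3 treatments (adjusted p = 0.00157). The log2 values were 0.23 at 5.3 mg/kg, -0.40 at 21.2 mg/kg and 2.88 for free L9, the last of which sets free L9 C (16.1 CPM) against NT 7 and NT 8 (1.90 and 2.15 CPM), both among the 5 libraries with low Rpl35rt counts. The summed share of the 78 members lay below the NT mean of the same set in every first-set library of the 2 lower doses and above it in every second-set library. At 5.3 mg/kg the difference from NT was -0.179 percentage points in the first set and 0.200 in the second. At 21.2 mg/kg it was -0.236 and 0.266 percentage points. This difference in the summed share was not tested.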

How the results depend on the processing

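Where a count of members called moved, it did so as follows, with the share of all genes called in either direction in parentheses. For NT against WT it was 5 with DESeq2 (6.71%), 6 in the first set (5.45%), 1 without a filter (2.30%) and 5 without the 5 libraries whose mitochondrial genes were at 0 (5.38%), in place of 2. With the replicate block it was 3 (4.57%), 2 higher and 1 lower, against 1 (4.92%) without the block in the same libraries, Rpl4 and Rpl10 missing the threshold (edgeR adjusted p = 0.125 and 0.0822), and these numbers share only a name. For 42.4 mg/kg against WT it was 8 with DESeq2 (11.6%), 7 with at least 10 counts in every library (13.6%), 9 in the first set (10.8%), 0 with a term for library naming (5.99%), 2 without a filter (4.21%) and 10 without the 5 libraries (10.7%), in place of 4. For free L9 against NT it was 3 with DESeq2 (2.83%), 1 with naming (0.988%), and 2 in the first set (2.24%), with a term for the 5 libraries (9.15%) or without them (2.17%), in place of 0. For 5.3 mg/kg against free L9 it was 1 with DESeq2 (2.28%), with naming (0.931%) or with that term (5.82%), 2 in the first set (0.916%) or without the 5 (0.906%), and 0 with the replicate block (0%), in place of 0. Between sets it was 28 by library size alone (32.8%) and 2 without the 5 libraries (5.63%), in place of 18, where Rpl21 (-1.73), Rpl35rt (0.24) and Rpl36 (0.15) reversed. For the effect by set it was 9 with DESeq2 and 4 without a filter, in place of 1 (1.22%). The share of all genes was not computed for either alternative, so these counts have no background. Why these counts moved was not tested. Leaving out each library in turn gave 0 to 3 for NT against WT, 1 to 4 for 42.4 mg/kg against WT, 0 to 1 for 42.4 mg/kg against NT, 0 to 17 for free L9 against NT, 0 to 7 for 5.3 mg/kg against free L9 and 15 to 28 between sets. In the other comparisons all alternatives gave 0.

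The members' median kept its sign for NT and for 42.4 mg/kg against WT in every alternative (0.17 to 0.34 and 0.19 to 0.38), while at 42.4 mg/kg against NT it ran from -0.08 to 0.10. The summed share in WT was 1.13% from normalized CPM. At 5.3 mg/kg it was 1.32% over all genes, 1.31% from normalized CPM and 1.50% with pseudogenes, at 21.2 mg/kg 1.26% and 1.48% for the last 2, and with pacDNA-Scr 1.30% and 1.53%. Left-out libraries gave shares of 1.24% to 1.32% in WT, 1.40% to 1.50% in NT, 1.36% to 1.39% at 5.3 mg/kg, 1.31% to 1.39% at 21.2 mg/kg, 1.43% to 1.60% at 42.4 mg/kg, 1.33% to 1.68% with free L9, 1.24% to 1.59% with Brush and 1.35% to 1.497% with pacDNA-Scr. Groups of 2 or 3 libraries limit what the tests could call.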
